A study of Mus musculus with 78 samples.

Results

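The genes described here are 8 that carry the adenosine signal of the brain: the receptors Adora1, Adora2a and Adora2b, the transporters Slc29a1 and Slc29a2, and the enzymes Adk, Ada and Nt5e. They were taken as a list of named genes, with earlier results of these data known, and all 8 are among the 55367 gene symbols of both deposited count tables. Acetate is a product of ethanol breakdown, and its activation by ACSS2 releases AMP, from which adenosine can be made. The study compared mice with and without ACSS2 after drinking, and these genes set how adenosine is formed, sensed, moved and removed.

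The 78 libraries of polyadenylated RNA, 40 from KO and 38 from WT mice, cover 7 brain regions of 12 adult animals. KO mice carried a constitutive CRISPR/Cas9 deletion in Acss2, made with guide pairs in introns before exon 3 and after exon 7, and the strain of all mice is given as C57BL6/J. Males numbered 1, 2 and 10 were KO and males 3, 12 and 13 were WT. Females 4, 5 and 6 were KO, whereas females 11, 23 and 24 were WT. All mice of both genotypes were single-housed and had drunk 15% ethanol in the drinking-in-the-dark paradigm, a model of binge-like intake, with sessions of 2 h on days 1 to 3 and 4 h on day 4, and with ethanol as the sole bottle in the second week. No group without ethanol was analysed here, so the values describe drinking mice only. Each region of each mouse gave at most 1 library.

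Adenosine is formed outside cells when ectonucleotidases strip phosphate from released ATP, the last step being the conversion of AMP to adenosine by CD73, the product of Nt5e. Equilibrative transporters let adenosine cross the membrane down its gradient, and inside the cell adenosine kinase returns it to AMP while adenosine deaminase turns it into inosine. Adora1 couples to inhibitory G proteins and damps transmitter release, whereas Adora2a and Adora2b couple to stimulatory G proteins. In the striatum Adora2a is best known from the spiny projection neurons of the indirect pathway, where it opposes the dopamine receptor Drd2, and it is a main target of caffeine. The transporter encoded by Slc29a1 is itself inhibited by ethanol.

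Total counts ranged from 4454420 to 14487778 in a deep set of 47 libraries (both striatal regions, amygdala and dorsal hippocampus), and from 629635 to 1228828 in a shallow set of 31 (cortex, prefrontal cortex and ventral hippocampus). A count of 3 was worth between 0.207 and 0.673 CPM (counts scaled by the library total) in the first set and between 2.44 and 4.76 CPM in the second. Acss2 lay between 0.971 and 13.96 CPM in KO libraries and between 35.9 and 73.8 CPM in WT libraries, with no overlap. The labelled regions were checked with 6 genes of spiny projection neurons that do not include Adora2a (Ppp1r1b, Pde10a, Adcy5, Gng7, Rgs9 and Gnal). Their summed level put 7 libraries on the wrong side of their label. In 3 striatal libraries the sum was at most 878 CPM, under the highest value of dorsal hippocampus and cortex (1031 CPM): male WT ventral striatum of mouse 13, female WT dorsal striatum of mouse 23 and male KO dorsal striatum of mouse 10. In 4 others it exceeded the lowest of the remaining striatal libraries (1359 CPM): amygdala and ventral hippocampus of female KO mouse 6 and prefrontal cortex of female KO mouse 5 and male KO mouse 1. These 7 are called the libraries apart, and some results, mainly those of Adora2a and Nt5e, are also given without them. Values include them unless stated. In 1 further library, labelled female WT prefrontal cortex of mouse 23, the sex-chromosome genes went against the label.

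Per kilobase of exon, Adora2a had the highest mean level of the 8 genes in striatum and Adora1 in the other regions, and Ada was low throughout. Adora2a reached a mean of 55.4 ± 30.5 CPM per kb in dorsal striatum (SD, n = 12 libraries) and 48.7 ± 29.9 in ventral striatum (n = 12). Adora1 lay between 26.2 ± 5.04 CPM per kb in ventral striatum (n = 12) and 52.2 ± 6.89 in dorsal hippocampus (n = 12). Adk followed with region means from 5.54 to 7.92 CPM per kb, Slc29a1 with 2.60 to 8.22, Slc29a2 with 2.14 to 4.05 and Adora2b with 1.62 to 2.63. Nt5e ranged from 0.291 CPM per kb in cortex to 2.30 in ventral striatum, and Ada from 0.157 to 0.568. Between the region with the highest mean and the one with the lowest, the level per kb differed 68.2-fold for Adora2a and 7.88-fold for Nt5e, but 1.99-fold for Adora1 and 1.43-fold for Adk. The values of Nt5e (ventral striatum over cortex) and Adk (cortex over amygdala) set a deep against a shallow region. Cortical libraries held 0 to 4 counts of Nt5e, so these 2 ratios are a description.

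**Figure D1:**
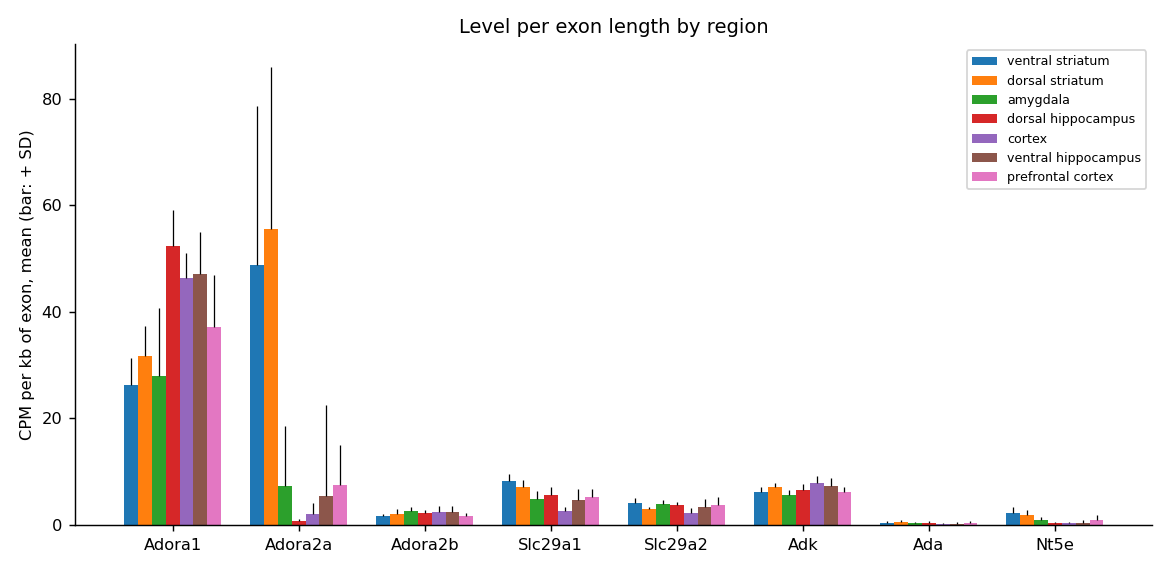
Mean level of each gene in each region, in CPM per kilobase of exon, with bars for + 1 SD over the 8 to 12 libraries of a region. Adora2a stands at 48.7 and 55.4 in the striatal regions and at 0.813 in dorsal hippocampus, while Adora1 is high in all 7 regions.

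Regions were compared within each depth set with edgeR's quasi-likelihood test, where a gene was called at a Benjamini-Hochberg adjusted p under 0.05 over all genes tested. The share of all genes called stands beside each count of members. Of the 7 tested members (Ada was too low), 2 were called between ventral and dorsal striatum, where 13.7% of all genes were called. Ventral striatum against amygdala gave 4 of 7 (46.9% of all genes), and against dorsal hippocampus 5 of 7 (53.9%). Dorsal striatum against amygdala gave 5 of 7 (55.6%), and against dorsal hippocampus 5 of 7 (54.7%). Amygdala against dorsal hippocampus gave 4 of 7 (39.1%). In the shallow set 4 members could be tested (Adora1, Slc29a1, Slc29a2 and Adk; the others did not pass the filter on low counts), and 1 was called between ventral hippocampus and cortex (29.3%), 3 between prefrontal cortex and cortex (39.4%) and 2 between prefrontal cortex and ventral hippocampus (30.9%). With at most 7 members tested, and libraries shared between the contrasts, these counts are a description and nothing is read from them. In bulk tissue, fewer cells of a type and less RNA per cell cannot be told apart. No test compared the deep and the shallow set with each other.

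Adora1, the inhibitory receptor (chr1:134199223-134235431, minus strand), was lower in striatum and amygdala than in dorsal hippocampus. Its level ran from 116 to 199 CPM in ventral striatum (median 142), from 145 to 253 in dorsal striatum (median 174), from 69.8 to 311 in amygdala (median 155) and from 237 to 367 in dorsal hippocampus (median 306). Outside the libraries apart, the dorsal striatal level ran from 145 to 203 CPM. No ventral striatal library reached the lowest of dorsal hippocampus, whereas the amygdala overlapped every other region. Adora1 overlaps Mybph on the opposite strand, which had at most 12 counts in any library, and the strand setting of the counting is not given in the sources used here. The log2 fold change from dorsal hippocampus was -1.06 in ventral striatum (SE 0.16, edgeR adjusted p = 2.75e-07), -0.76 in dorsal striatum (SE 0.16, edgeR adjusted p = 7.21e-05) and -0.96 in amygdala (SE 0.16, edgeR adjusted p = 7.11e-06). Among the striatal regions and the amygdala no difference was called. In the shallow set Adora1 spanned 231 to 307 CPM in cortex, 215 to 374 in ventral hippocampus and 127 to 291 in prefrontal cortex. It was lower in prefrontal cortex than in cortex by 0.40 on the log2 scale (log2 fold change -0.40, SE 0.12, edgeR adjusted p = 0.00900) and than in ventral hippocampus (-0.39, SE 0.12, edgeR adjusted p = 0.0128), while ventral hippocampus and cortex were not separated (-0.01, 95% confidence interval -0.23 to 0.21).

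Adora2a, the stimulatory receptor of indirect-pathway neurons (chr10:75316877-75334784, plus strand), had the widest range of region means of the 8 genes, and it also varied within regions. In ventral striatum the KO libraries held 158, 160, 233, 230, 229 and 25.9 CPM and the WT libraries 45.6, 159, 301, 145, 93.5 and 8.06 CPM, the last being the library apart of mouse 13. In dorsal striatum the KO libraries held 136, 181, 233, 211, 292 and 6.73 CPM and the WT libraries 247, 3.08, 158, 124, 277 and 167 CPM, where the values under 10 CPM are the libraries apart. Outside these, every dorsal striatal library held at least 124 CPM, and the ventral striatum was more uneven. Dorsal hippocampus stood at the other end, from 1.68 to 4.65 CPM in all 12 libraries. The log2 fold change over dorsal hippocampus was 5.80 in ventral striatum (SE 0.73, edgeR adjusted p = 7.89e-09) and 6.13 in dorsal striatum (SE 0.74, edgeR adjusted p = 2.54e-09). Without the libraries apart these became 5.91 (SE 0.54) and 6.38 (SE 0.55). Ventral and dorsal striatum were not separated (-0.32, 95% confidence interval -1.43 to 0.78).

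In the amygdala Adora2a fell into groups of libraries. There were 4 with 34.2 to 114 CPM and 7 with 0.654 to 4.05 CPM, with nothing between. The summed spiny neuron list was 991 to 2108 CPM in the first 4 and 618 to 797 CPM in the other 7, and Nt5e was 9.09 to 17.7 CPM against 2.47 to 7.998 CPM. These 4 came from both genotypes (female KO mice 5 and 6, male KO mouse 2 and female WT mouse 24), and the part of the spiny neuron list in this split was not tested. The fitted difference of amygdala over dorsal hippocampus, 2.82 (SE 0.74, edgeR adjusted p = 0.00208), is a mean over both kinds of Adora2a level. In cortex Adora2a ran from 0 to 21.7 CPM, and in ventral hippocampus from 0 to 6.95 CPM except for 183 CPM in the library apart of female KO mouse 6. Values under 2.44 CPM in the shallow set are below 3 counts in every library.

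Adora2b, the low-affinity stimulatory receptor (chr11:62248984-62266453, plus strand), stayed between 0.944 and 7.77 CPM in all 78 libraries. It was lower in ventral striatum (2.30 to 4.51 CPM, median 2.91) than in amygdala (3.17 to 7.31 CPM, median 4.61), with a log2 fold change of -0.63 (SE 0.17, edgeR adjusted p = 0.00250). Its difference from dorsal hippocampus was smaller (-0.43, SE 0.17, edgeR adjusted p = 0.0339). That Adora2b call was lost with scaling by column totals (adjusted p = 0.0789) and without a filter on low counts (adjusted p = 0.0713).

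**Figure D2:**
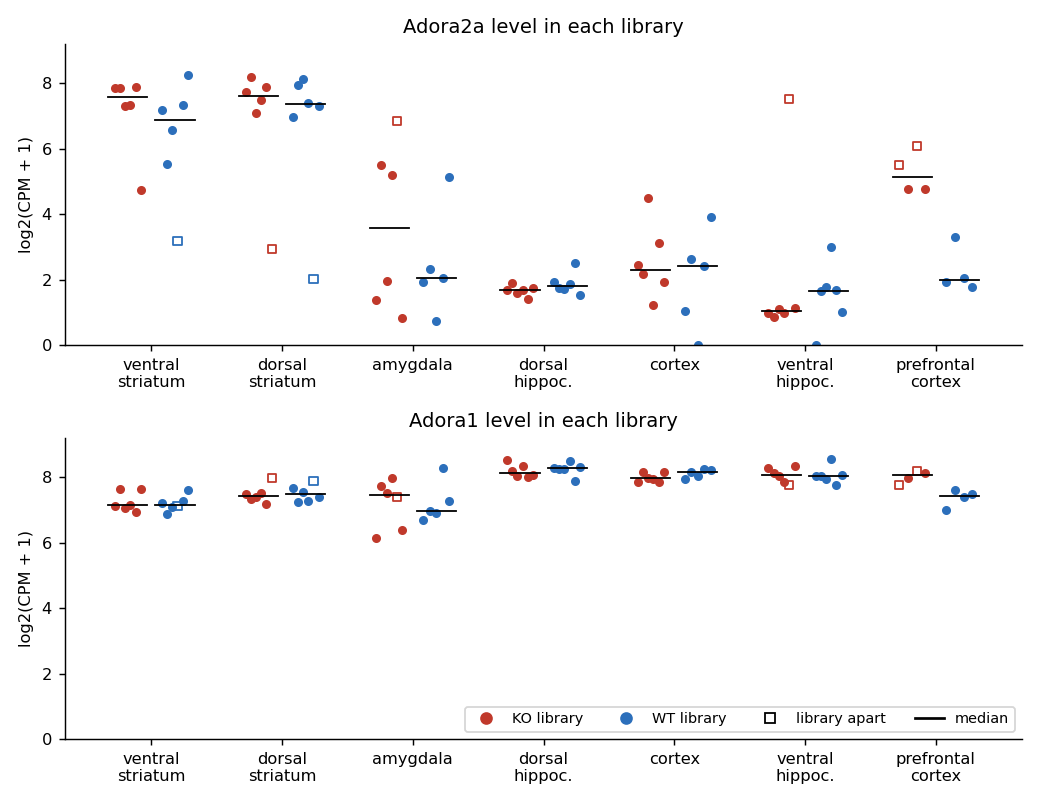
Level of Adora2a and Adora1 in each library as log2(CPM + 1), by region, with KO libraries in red, WT libraries in blue, open squares for the libraries apart and lines for medians. Outside the open squares, Adora2a lies between 25.9 and 301 CPM in striatal libraries and between 0 and 44.5 CPM in those of other regions. Among the open squares, the striatal ones hold 3.08 to 8.06 CPM and the others up to 183 CPM. Adora1 stays within 69.8 to 374 CPM.

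Of the equilibrative transporters, Slc29a1 (chr17:45585200-45599606, minus strand) was highest in striatum. It ran from 21.97 to 40.9 CPM in ventral striatum (median 32.4), 17.5 to 35.2 in dorsal striatum (median 28.6), 11.6 to 33.3 in amygdala (median 18.4) and 15.6 to 37.7 in dorsal hippocampus (median 21.7). The ranges overlapped, but the ventral striatal median exceeded all dorsal hippocampal libraries except that of female WT mouse 23. Slc29a1 was 0.76 higher on the log2 scale in ventral striatum than in amygdala (SE 0.14, edgeR adjusted p = 1.59e-05) and 0.50 higher than in dorsal hippocampus (SE 0.13, edgeR adjusted p = 0.00151). In dorsal striatum it was 0.57 higher than in amygdala (SE 0.14, edgeR adjusted p = 0.000449) and 0.31 higher than in dorsal hippocampus (SE 0.13, edgeR adjusted p = 0.0439). Both include the libraries apart, without which dorsal striatum held 27.3 to 35.2 CPM of Slc29a1. In the shallow set the cortex was lowest, with 5.23 to 15.1 CPM (5 to 14 counts). Slc29a1 was higher than there by 0.76 in ventral hippocampus (SE 0.25, edgeR adjusted p = 0.0192) and by 0.91 in prefrontal cortex (SE 0.26, edgeR adjusted p = 0.00580). It passed the low-count filter mainly through these regions, where it was higher, so the calls against cortex are given as a description.

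Slc29a2, the second equilibrative transporter (chr19:5023860-5031972, plus strand), had its low point among the deep regions in dorsal striatum. There it held 7.48 to 10.6 CPM (median 8.88), against 6.90 to 17.4 in ventral striatum (median 12.3), 7.98 to 17.1 in amygdala (median 11.2) and 9.66 to 15.3 in dorsal hippocampus (median 11.2). Ventral over dorsal striatum gave a log2 fold change of 0.38 for Slc29a2 (SE 0.10, edgeR adjusted p = 0.00632). Dorsal striatum against amygdala gave -0.35 (SE 0.10, edgeR adjusted p = 0.00235) and against dorsal hippocampus -0.37 (SE 0.10, edgeR adjusted p = 0.00121). In prefrontal cortex Slc29a2 was 0.68 above cortex but not called (edgeR adjusted p = 0.0579). With the mouse as a block, which uses that regions came from the same animals, the difference was 0.82 and called (edgeR adjusted p = 0.0279). Cortical libraries held 2 to 10 counts of Slc29a2, which passed the low-count filter mainly through prefrontal cortex and ventral hippocampus, so that call too is a description.

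Adk, the kinase that clears adenosine to AMP and is known from astrocytes in the adult brain (chr14:21052574-21448569, plus strand), was the most even member. Its region medians ran from 51.6 CPM in amygdala to 62.8 CPM in cortex, and its libraries from 36.2 to 84.8 CPM. Differences of less than 1 on the log2 scale were called. Dorsal striatum was 0.37 above amygdala (SE 0.08, edgeR adjusted p = 7.65e-05), and amygdala lay under dorsal hippocampus by a log2 fold change of -0.30 (SE 0.08, edgeR adjusted p = 0.00176). Prefrontal cortex lay under cortex (-0.50, SE 0.12, edgeR adjusted p = 0.00111) and under ventral hippocampus (-0.32, SE 0.12, edgeR adjusted p = 0.0339). Ventral striatum lay under dorsal striatum by -0.22 for Adk (SE 0.08, edgeR adjusted p = 0.0454), a call lost in most alternatives, among them leaving out any 1 of 9 of the 12 mice.

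Nt5e, which encodes CD73 (chr9:88327197-88372092, plus strand), followed Adora2a in the deep regions. In ventral striatum it held 18.9, 21.3, 27.2, 26.2, 20.7 and 6.57 CPM in KO and 16.7, 19.97, 38.2, 20.6, 17.6 and 3.06 CPM in WT libraries, listed by mouse as for Adora2a. The libraries low for Nt5e, those of mice 10 and 13, are also those lowest for Adora2a. In dorsal striatum it held 2.66 to 26.8 CPM, with the libraries apart at 2.66 and 2.91 CPM and the others at 11.5 CPM or more. Dorsal hippocampus had 2.17 to 5.89 CPM. The log2 fold change of Nt5e over dorsal hippocampus was 2.43 in ventral striatum (SE 0.33, edgeR adjusted p = 2.99e-08), 2.26 in dorsal striatum (SE 0.32, edgeR adjusted p = 1.27e-07) and 1.07 in amygdala (SE 0.34, edgeR adjusted p = 0.0100). Without the libraries apart the first and second were 2.52 and 2.47.

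Ada, the deaminase that turns adenosine into inosine (chr2:163726584-163750239, minus strand), was near the limit of detection. It had no count in 21 of 78 libraries and 10 or more counts in 8. The highest value in any library was 2.48 CPM (female WT dorsal hippocampus of mouse 23), and the highest region median was 0.955 CPM in dorsal striatum. Of these 21 libraries, 20 were in the shallow set, where its counts summed to 3 over 11 cortical, 6 over 12 ventral hippocampal and 6 over 8 prefrontal libraries, against 96 over the 12 of dorsal striatum.

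**Figure D3:**
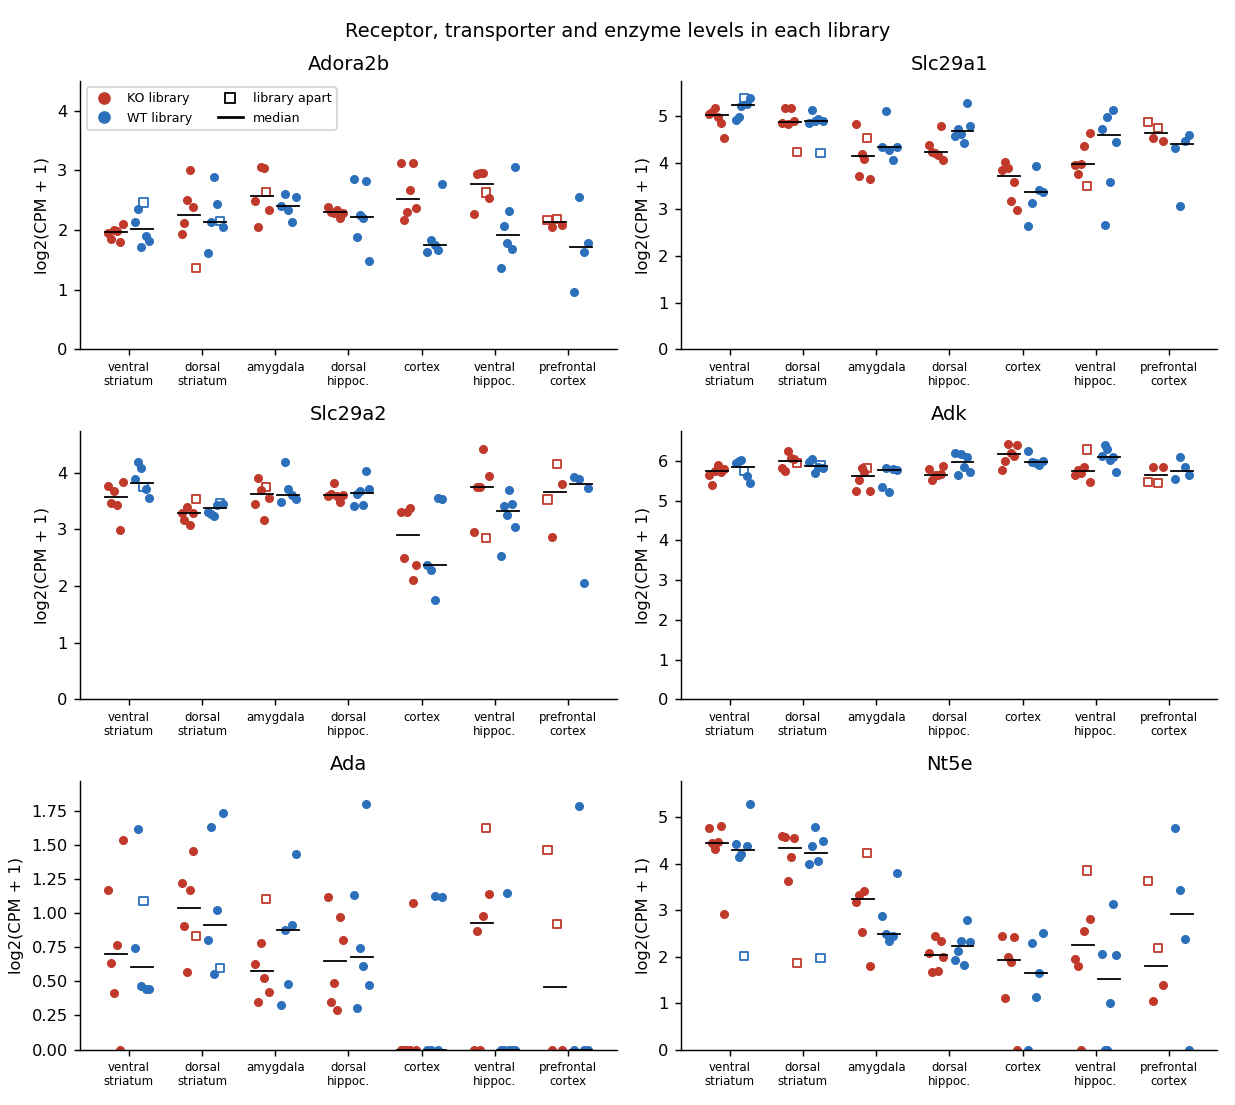
Level of Adora2b, the transporters and the enzymes in each library as log2(CPM + 1), by region, with symbols as for the receptors; each panel has its own scale. Nt5e drops from a median of 20.3 CPM in ventral striatum to 3.29 CPM in dorsal hippocampus, Adk is even across regions, and Ada is at 0 in many shallow libraries.

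The windows around annotated starts of Nt5e and Adora1 are shown because their levels ran in opposite directions across regions, Nt5e being high in striatum and Adora1 high in hippocampus. They are RefSeq windows on GRCm38.p6, from 250 bases before to 50 after an annotated start, with CpG dinucleotides in capitals. The Adora1 window is the first of 2 annotated starts (chr1:134235408-134235707, minus strand) and the Nt5e window lies at chr9:88327359-88327658, plus strand. The RefSeq start of Nt5e lies after the start of the GENCODE gene model given above, so its whole window lies within that model.
Adora1: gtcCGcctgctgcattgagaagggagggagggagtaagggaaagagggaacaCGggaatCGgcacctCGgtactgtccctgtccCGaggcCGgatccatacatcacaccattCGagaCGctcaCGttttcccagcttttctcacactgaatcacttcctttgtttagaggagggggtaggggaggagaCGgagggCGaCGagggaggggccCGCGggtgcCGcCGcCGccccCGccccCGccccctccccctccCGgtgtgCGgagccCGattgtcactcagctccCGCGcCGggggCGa
Nt5e: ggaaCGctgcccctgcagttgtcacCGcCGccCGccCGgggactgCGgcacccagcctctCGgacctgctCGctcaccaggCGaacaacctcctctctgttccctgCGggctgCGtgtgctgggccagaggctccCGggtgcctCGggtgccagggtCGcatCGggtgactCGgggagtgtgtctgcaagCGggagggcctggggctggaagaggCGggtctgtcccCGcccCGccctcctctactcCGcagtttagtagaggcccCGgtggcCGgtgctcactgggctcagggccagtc
Both are rich in CpG, with 26 in the Adora1 window and 23 in the Nt5e window, against a median of 7 in the 32851 windows of the table. Of all windows, 83.1% hold fewer CpG than that of Adora1 and 78.5% fewer than that of Nt5e. The palindromic cAMP response element, TGACGTCA, occurs on either strand in 1.79% of windows and in none of the 16 windows of 7 members. RefSeq windows were found for all members but Adora2a.

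Within striatum the levels of Adora2a and Nt5e moved with the spiny neuron list from library to library. Over the 11 ventral striatal libraries without the one apart, log2(CPM + 1) of Adora2a and of the list gave Pearson's r = 0.996 and Spearman's rho = 0.99 (permutation p = 1e-05 each, the smallest that 100000 resamples can give; adjusted p = 0.00026 over 26 relations). Leaving out the 2 libraries farthest from the median of the list left r = 0.98. Over the 10 dorsal striatal libraries without those apart, Adora2a gave r = 0.97 and rho = 0.94 (permutation p = 4e-05 and 0.00025, adjusted 0.000347 and 0.00217), and r = 0.95 without the 2 farthest. Nt5e gave r = 0.91 in ventral striatum (rho 0.95, permutation p = 2e-05 and 5e-05, adjusted 0.00026 and 0.00065, r = 0.87 without the 2 farthest) and r = 0.86 in dorsal striatum (rho 0.85, permutation p = 0.0012 and 0.00273, adjusted 0.0078 and 0.0177, r = 0.88 without the 2 farthest). Both values of a pair come from the same library and are shares of the same total.

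For Adora1 no relation passed the test (r = 0.04 in ventral striatum, permutation p = 0.91, but 0.53 without the 2 farthest libraries, and r = -0.36 in dorsal striatum, permutation p = 0.304). Slc29a2 ran the other way in ventral striatum by rank (rho = -0.80, permutation p = 0.00403, adjusted 0.021), with r = -0.64 (permutation p = 0.0389, adjusted 0.104). Adk also fell as the spiny list rose there (rho = -0.75, permutation p = 0.0099, adjusted 0.0429), with r = -0.58 (permutation p = 0.0582, adjusted 0.138). Against a list of 7 astrocyte genes, Adk gave r = 0.87 in amygdala (n = 10, permutation p = 0.00472, adjusted 0.0245) and rho = 0.67 (permutation p = 0.0392, adjusted 0.102). In ventral striatum Adk gave r = 0.71 with that list (n = 11, permutation p = 0.0123, adjusted 0.0457), which dropped to 0.43 without the 2 farthest libraries. In prefrontal cortex r was 0.93 for Adk (n = 6, permutation p = 0.0112, adjusted 0.0457), and 0.56 without the 2 farthest. By rank neither of these passed, with rho 0.65 in ventral striatum (adjusted permutation p = 0.0979) and 0.94 in prefrontal cortex (adjusted permutation p = 0.0624). No relation of Adk with the list passed in dorsal striatum (r = 0.73, adjusted permutation p = 0.0510), cortex (r = 0.17) or ventral hippocampus (r = 0.30). In dorsal hippocampus r was 0.04 (n = 12, permutation p = 0.899). Slc29a1 was compared with 6 endothelial genes in all 7 regions, and no relation had an adjusted permutation p under 0.05 (lowest 0.256).

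**Figure D4:**
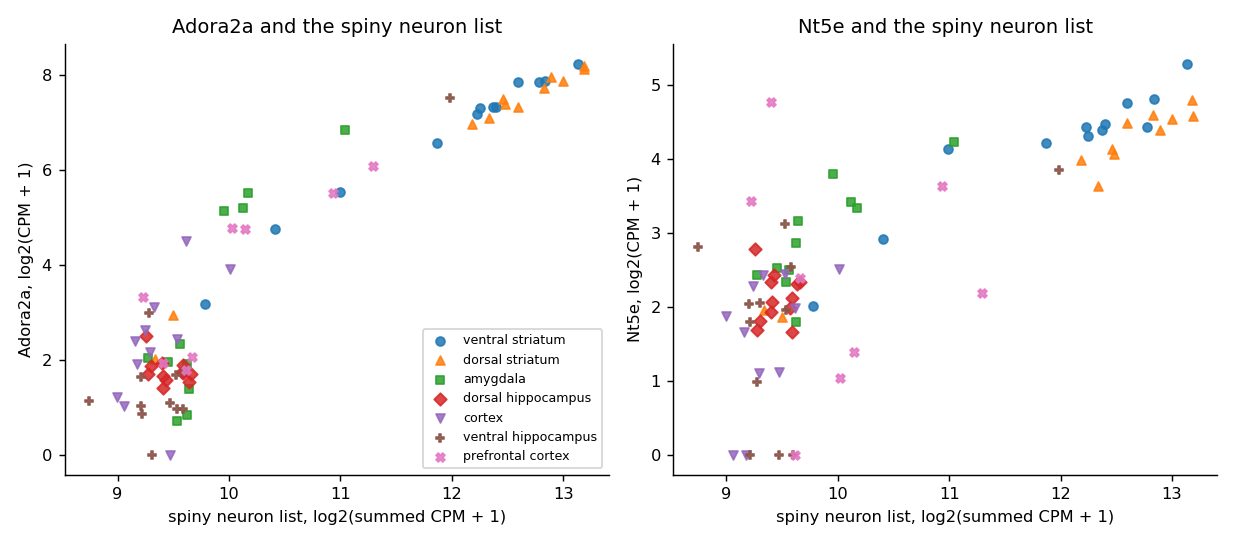
Each point is a library, with the summed level of the 6 spiny neuron genes on the horizontal axis and Adora2a or Nt5e on the vertical axis, both as log2 of CPM + 1, and colours and symbols for regions. Adora2a lies along a rising band that includes the libraries apart of every region, and Nt5e follows it with more scatter. The male WT prefrontal library of mouse 3 lies off the band for Nt5e, which is 3.91% of a list sum of 677 CPM there.

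The first comparison of interest to the study, KO against WT in both sexes with sex in the model, called none of the members in 6 of the 7 regions. In ventral striatum 0 of 7 were called (0.00739% of all genes), in dorsal striatum 0 of 7 (0.00723%), in amygdala 0 of 7 (0.00699%), in dorsal hippocampus 0 of 7 (0.00722%), in cortex 0 of 2 (0.0103%) and in ventral hippocampus 0 of 3 (0.00996%). The 1 gene called in each of these regions was Acss2 itself. In prefrontal cortex 1 of 5 was called (0.0949% of all genes, 10 in number), and it was Adora2a. Adora2a passed the filter on low counts there only through the KO libraries (25 to 75 counts, against 2 to 11 in WT), so a gene that entered the test in this way had to differ. Across the 38 tests of members, edgeR gave 5 unadjusted p under 0.05, and the DESeq2 Wald test called the same number of members as edgeR, 1. The share of all genes with such an unadjusted p is not given here, so nothing is read from the count of 5. Each library of a group came from another mouse.

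In ventral striatum, Adora2a differed between KO and WT by a log2 fold change of 0.55, but with a 95% confidence interval from -0.86 to 1.95 (edgeR adjusted p = 0.789). Without the library apart it gave 0.25 (-0.93 to 1.42). Its KO and WT values overlapped over nearly the whole range. Nt5e gave 0.11 (-0.80 to 1.01, edgeR adjusted p = 0.945) and turned to -0.14 without the library apart. Adora1 gave 0.06 (-0.30 to 0.42), Adk -0.09 (-0.32 to 0.13) and Adora2b -0.19 (-0.62 to 0.25). The transporters were both lower in KO without passing the adjusted test: Slc29a1 -0.25 (-0.55 to 0.05, edgeR adjusted p = 0.647) and Slc29a2 -0.36 (-0.69 to -0.02, edgeR unadjusted p = 0.0396, adjusted p = 0.647). Slc29a2 stood at 11.8, 9.77, 6.90, 12.6, 9.99 and 13.3 CPM in KO and 17.4, 12.2, 10.8, 13.8, 15.9 and 12.4 CPM in WT libraries, so the ranges overlapped.

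In dorsal striatum Adora2a gave 0.15 with an interval from -1.58 to 1.88 (edgeR adjusted p = 1.000). Without the 2 libraries apart the estimate was again 0.15, and the interval narrowed to -0.40 to 0.70. Nt5e gave -0.00 (-1.09 to 1.08), and without the libraries apart 0.02 (-0.48 to 0.51). In amygdala Adora2a gave 2.00 (-0.43 to 4.44, edgeR adjusted p = 0.993), and 3 of the 4 libraries with high Adora2a described above were KO. Without the library apart it gave 1.48 (-1.22 to 4.18).

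Set against the spiny neuron genes of the same library, no difference in Adora2a or Nt5e between KO and WT striatum passed the test, which does not show that they are equal. Without the libraries apart, the Adora2a level was 2.94 ± 0.229% of the summed spiny list in KO and 2.88 ± 0.270% in WT dorsal striatum (SD, n = 5 and 5, two-sided exact permutation p = 0.698, adjusted 0.786 over 9 tests). In ventral striatum it was 3.05 ± 0.607% in KO and 2.82 ± 0.447% in WT (n = 6 and 5, exact permutation p = 0.515, adjusted 0.773). For Nt5e the share was 0.271 ± 0.0381% in KO and 0.298 ± 0.0343% in WT dorsal striatum (n = 5 and 5, exact permutation p = 0.286, adjusted 0.643), and 0.393 ± 0.0619% and 0.504 ± 0.179% in ventral striatum (n = 6 and 5, exact permutation p = 0.143, adjusted 0.429). With all libraries, the ventral striatal share of Adora2a was 3.05% in KO and 2.51% in WT (n = 6 and 6, exact permutation p = 0.260, adjusted 0.526).

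In dorsal hippocampus Slc29a1 and Adk were lower in KO before correction for the genes tested. Slc29a1 held 17.6, 16.8, 26.5, 19.7, 17.9 and 15.6 CPM in KO and 25.4, 37.7, 26.5, 22.9, 23.5 and 20.5 CPM in WT libraries. Of the 6 KO libraries, 5 were under every WT library. The log2 fold change was -0.43 (SE 0.13, 95% confidence interval -0.72 to -0.14, edgeR unadjusted p = 0.00732, adjusted p = 1.000), and it failed the correction. Without female WT mouse 23, whose library also held 4812 CPM of 6 choroid plexus genes against 30.8 to 1297 CPM in the other 11, Slc29a1 gave -0.33. Adk held 49.0, 49.2, 49.4, 54.3, 44.8 and 57.8 CPM in KO and 48.9, 67.6, 51.9, 72.3, 71.3 and 56.2 CPM in WT, and its difference of -0.26 (SE 0.09, edgeR unadjusted p = 0.0172, adjusted p = 1.000) also failed. In ventral hippocampus Slc29a1 gave -0.40 (-1.13 to 0.33), Adk -0.31 (-0.65 to 0.02) and Adora1 -0.02 (-0.27 to 0.24). In cortex Adora1 gave -0.13 (-0.34 to 0.07) and Adk 0.14 (-0.15 to 0.43).

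The prefrontal cortex was the region where a receptor was called. Adora2a entered that test only through the KO libraries, where it was high, so its p-value is given as a description. Adora2a stood at 26.4, 66.6, 26.04 and 44.8 CPM in the KO libraries (female mice 4, 5 and 6 and male mouse 1) and at 8.98, 2.45, 2.83 and 3.18 CPM in the WT libraries (female mice 11 and 23 and male mice 3 and 12). These are 25 to 75 counts in KO and 2 to 11 in WT, and every KO library was above every WT library. The share of all genes that separate in this way is not given here, so nothing is read from the separation. The log2 fold change was 3.09 (SE 0.45, 95% confidence interval 2.14 to 4.03, edgeR adjusted p = 0.0122). The spiny neuron list moved with it: all 6 genes were detected in both genotypes, and their sum was 1039 to 2511 CPM in KO and 597 to 811 CPM in WT. The direct-pathway list was also apart (125 to 251 CPM in KO, 59.6 to 119 CPM in WT), whereas the indirect-pathway list overlapped (176 to 512 CPM in KO, 145 to 310 CPM in WT, the highest WT value being that of male mouse 3 with 2.83 CPM of Adora2a). The endothelial list was lower in KO without overlap (181 to 221 CPM, against 227 to 283 CPM in WT). The oligodendrocyte list was 2493 to 11061 CPM in KO and 1708 to 3244 CPM in WT, and the list of leptomeninges and fibroblasts 53.7 to 74.6 CPM in KO and 120 to 244 CPM in WT. The part of these differences in the Adora2a result was not tested. Without the libraries of female KO mouse 5 and male KO mouse 1, Adora2a still lay at 26.04 and 26.4 CPM above the 4 WT libraries, but the log2 fold change fell to 2.03 (0.95 to 3.11) and was not called (edgeR adjusted p = 0.318).

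As a share of the spiny list, prefrontal Adora2a was 2.29 to 2.65% in the 4 KO libraries and 0.313 to 1.50% in the 4 WT libraries. This share does not correct for the amount of spiny neuron tissue, since it was also low (0.478 to 0.933%) in the 3 striatal libraries apart, where the list itself was low. The call of Adora2a was lost without male KO mouse 1 (2.63, edgeR adjusted p = 0.0719) and in females alone (2.62, edgeR adjusted p = 0.0563), and 1 male KO library was all that group had. It was kept (2.88, edgeR adjusted p = 0.0168) without the library whose sex genes opposed its label. Adora1 was also higher in KO, with 253, 291, 281 and 217 CPM in KO and 198, 180, 127 and 167 CPM in WT libraries and no overlap. Its log2 fold change of 0.54 (SE 0.13, edgeR unadjusted p = 0.000948) did not pass the adjusted test (edgeR adjusted p = 0.133). Here too the share of all genes without overlap is not given, and the part of the marker list differences was not tested. Slc29a1 gave 0.60 (-0.04 to 1.24) and Adk -0.21 (-0.60 to 0.17) in prefrontal cortex.

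**Figure D5:**
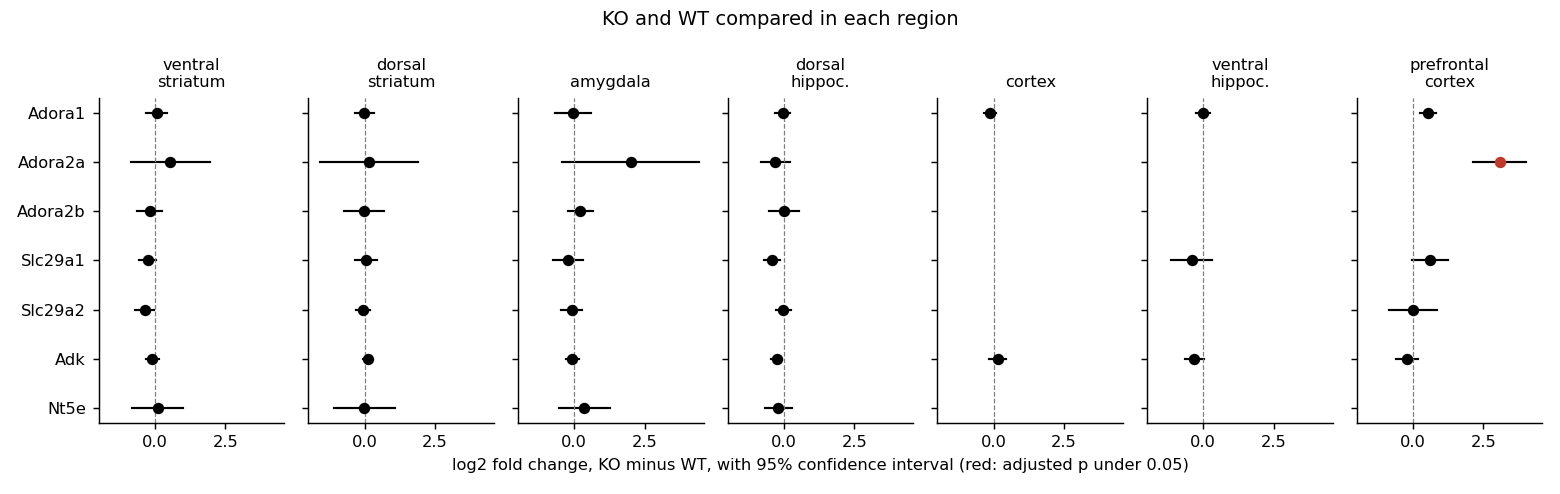
Log2 fold change of KO over WT for the members tested in each region, with 95% confidence intervals from edgeR and red for an adjusted p under 0.05. Adora2a in prefrontal cortex (3.09) is the red point, and it passed the low-count filter there only through the KO libraries. The intervals of Adora2a in amygdala (-0.43 to 4.44) and dorsal striatum (-1.58 to 1.88) are the widest.

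The sexes were compared in their KO effect in 6 regions, since the male prefrontal cortex had 1 KO library. No member was called: 0 of 7 in ventral striatum (0% of all genes), 0 of 8 in dorsal striatum (0%), 0 of 7 in amygdala (0%), 0 of 7 in dorsal hippocampus (0%), 0 of 4 in cortex (0%) and 0 of 4 in ventral hippocampus (0%). Among the 37 tests, edgeR gave 3 unadjusted p under 0.05 and DESeq2 called 0, and without the share of all genes nothing is read from this count. These 3 were Adora1 in ventral striatum (male minus female KO effect 0.64 on the log2 scale, SE 0.29, edgeR unadjusted p = 0.0461), Adora2b in dorsal striatum (-1.36, SE 0.58, edgeR unadjusted p = 0.0393) and Adora2b in amygdala (-0.78, SE 0.34, edgeR unadjusted p = 0.0465), with adjusted p from 0.769 to 0.943. The KO effect in ventral minus dorsal striatum was called for 0 of 7 members (0% of all genes), with 0 unadjusted p under 0.05 in edgeR and 0 calls by DESeq2. For Adora2a that difference was 0.37 (-1.87 to 2.62).

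Of the wider purine pathway, 44 further genes of the list were in the tables, including nucleotidases, adenylate kinases, salvage enzymes and other transporters. None was called between KO and WT in any region by edgeR in 208 tests, 6 of which had an unadjusted p under 0.05, and DESeq2 called 0. Of these 6, 4 were in ventral striatum and all lower in KO: Entpd2, an ectonucleotidase (-0.63), Slc29a4, a monoamine transporter that can also carry adenosine (-0.73), Alpl, tissue-nonspecific alkaline phosphatase (-0.33), and Ampd3, an AMP deaminase (-0.27). They were named after their values were seen, among 33 tested there, and their edgeR adjusted p was 0.647. The remaining genes with such an unadjusted p were 1 in dorsal striatum and 1 in prefrontal cortex. The share of all genes with an unadjusted p under 0.05 is not given here, so nothing is read from the shared direction. The sex difference gave 0 of 192 (7 unadjusted) and the ventral minus dorsal KO effect 0 of 35 (1 unadjusted), with 0 by DESeq2.

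Between regions 137 of 294 tests of the pathway list were called. Over the same contrasts, which share libraries, 13.7% to 55.6% of all genes were called, so the pooled count is a description. In ventral over dorsal striatum 6 of 35 were higher and 1 lower (13.7% of all genes called), with the largest changes in Nt5c1a, a cytosolic AMP nucleotidase (0.59), Entpd6 (0.54) and Panx1, a channel that releases ATP (0.39). Against dorsal hippocampus, 11 of 35 were higher and 11 lower in ventral striatum (53.9% of all genes called), and 11 higher and 12 lower in dorsal striatum (54.7%). Slc29a4 was lower there (-2.16 and -2.77), as was Ak5, a brain adenylate kinase (-1.75 and -1.87), while Pnp2, a purine nucleoside phosphorylase, was higher (1.97 and 2.41). Against amygdala, 9 were higher and 11 lower in ventral striatum (46.9%) and 9 higher and 12 lower in dorsal striatum (55.6%), led by Pnp2 (1.92 and 2.37), Ak5 (-1.77 and -1.90) and Aprt, which salvages adenine (-1.70 and -1.96). Amygdala over dorsal hippocampus gave 9 higher and 7 lower (39.1%), led by Gda, guanine deaminase (1.30), Slc29a4 (-0.99) and Nt5c1a (-0.98). In the shallow set of 28 tested, ventral hippocampus over cortex gave 5 higher and 4 lower (29.3%), led by Slc29a4 (2.12), Enpp2 (-1.19) and Ak4 (0.86). Prefrontal cortex over cortex gave 4 and 4 (39.4%), led by Hprt (-0.71), Nt5c3 (-0.68) and Entpd6 (0.60), and over ventral hippocampus 4 and 7 (30.9%), led by Slc29a4 (-1.57), Ak4 (-0.68) and Enpp2 (0.67).

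The genes whose pattern over the 78 libraries was most like that of a member were found among 11755 others by Pearson's r of log2(CPM + 1), as a description that mixes regions and libraries. For Adora2a they were Sh3rf2 (0.95), Cd4 (0.95) and Gpr6 (0.95), the last an orphan receptor of indirect-pathway neurons. For Nt5e they were Penk, which encodes the enkephalins of the same neurons (0.84), Klhl13 (0.83) and Rarb (0.82). Adora1 was nearest to Neurod6, a transcription factor of excitatory forebrain neurons (0.79), Kcnab2 (0.78) and Anxa11 (0.77). Slc29a1 was nearest to Srgap1 (0.81), Agap1 (0.80) and Zfhx3 (0.76), and Slc29a2 to Rab27a (0.61), Copa (0.60) and Pdcd11 (0.60). Adk was nearest to Glul, the astrocytic glutamine synthetase (0.73), Uqcrh (0.72) and Marchf2 (0.71). Among the members themselves the closest pair was Adora2a with Nt5e (0.78), and the most opposed Adora1 with Nt5e (-0.55). Adora2b and Ada were under the minimum of 5 CPM.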

How the data were processed

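RNA-seq of 7 brain regions of 12 mice gave 78 libraries. The deposited tables hold raw counts per gene, 1 table for each sex. The submitters' processing notes name STAR 2.5.2a, SAMtools 1.1, HTSeq 0.6.1, DESeq2 and R 4.0.2 and the build GRCm38, and the strand setting of the counting is not given in the sources used here. The authors' counts were used as deposited. CPM divides a count by the library's column total. Gene lengths are union exon lengths of GENCODE M21.

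Groups came from the labels. The tests used edgeR 4.0.16 (quasi-likelihood, TMM scaling, filterByExpr with a minimum count of 10, Benjamini-Hochberg adjustment over all genes tested, called under 0.05), with limma 3.58.1 in R 4.3.3. KO against WT was fitted within each region with sex as a covariate. Region contrasts were fitted within each depth set, with the sex and genotype group as a covariate. DESeq2 1.42.0, other scalings, no filter, subsets and leaving out each mouse were alternatives. Python 3.11.15 with scipy 1.17.1 ran the exact and other permutation tests. The scripts were tested on simulated data.

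All 8 members are named, and of the pathway list the 3 called genes with the largest change in each region contrast. The members and lists were chosen with earlier results of these data known. Libraries of 1 mouse come from the same animal, so the mouse pairs them across regions. Deviations of libraries of the same mouse correlated with a mean r of 0.0487 over 69 pairs in the deep set and -0.0143 over 24 pairs in the shallow set. A further gene of the spiny neuron list is not reported here and is in none of the sums.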

Additional observations from a re-analysis of the deposited data

Results flagged for a closer look

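Of 93 groups of 4 to 6 libraries of 1 genotype and region, 15 held a library far from the nearest of the others relative to the group's range. Chance would give this in about 1 in 20 groups if values were independent and normally distributed. The same libraries recur across genes and some groups hold few counts, so that rate need not hold and no excess is read. For Adora1 the flagged libraries were dorsal striatum of male KO mouse 10 (253 CPM, others 145 to 184), amygdala of female WT mouse 23 (311 CPM, others 103 to 155) and ventral hippocampus of male WT mouse 13 (374 CPM, others 215 to 269).

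Adora2a had 6. It was low in ventral striatum of male KO mouse 10 (25.9 CPM, others 158 to 233). It was high in amygdala of female WT mouse 24 (34.2 CPM, others 0.654 to 4.05), dorsal hippocampus of female WT mouse 23 (4.65 CPM, others 1.92 to 2.82) and cortex of female KO mouse 4 (21.7 CPM, others 1.35 to 7.70). It was also high in ventral hippocampus of female KO mouse 6 (183 CPM, others 0.829 to 1.2005) and prefrontal cortex of female WT mouse 11 (8.98 CPM, others 2.45 to 3.18).

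Slc29a1 stood out in amygdala of male WT mouse 12 (33.3 CPM, others 15.8 to 19.3) and in dorsal hippocampus of female KO mouse 6 (26.5 CPM, others 15.6 to 19.7) and female WT mouse 23 (37.7 CPM, others 20.5 to 26.5). Slc29a2 did in amygdala of male WT mouse 12 (17.1 CPM, others 10.2 to 12.2), Adk in cortex of male WT mouse 3 (74.3 CPM, others 58.3 to 62.2) and Nt5e in amygdala of female WT mouse 24 (12.98 CPM, others 4.05 to 6.30).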

How the results depend on the processing

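Of 56 results for single genes, 50 kept their direction under every alternative, and 13 of 23 counts of called members stayed within 1.5 times. The 56 were region contrasts of members that were called, together with KO, sex and ventral minus dorsal results chosen by name. Of them, 32 were called in the main fit. The alternatives reuse the same libraries, so called results were likely to keep their direction, and 50 of 56 is a description. Leaving out the libraries apart was an alternative chosen after seeing the data. The share of all genes called under each alternative is not given beside the counts below, so nothing about the members is read from them. Without a filter on low counts the members called for KO were 1 in ventral hippocampus and 2 in prefrontal cortex, the sex difference gave 1 in ventral hippocampus, and the region contrasts gave 1 (ventral minus dorsal striatum), 2 (ventral hippocampus minus cortex), 5 (prefrontal cortex minus cortex) and 1 (prefrontal cortex minus ventral hippocampus). Prefrontal KO calls were 0 in females alone and 0 without the libraries apart. In WT libraries alone the region contrasts gave 0 (ventral minus dorsal striatum), 3 (ventral striatum minus dorsal hippocampus), 3 (dorsal striatum minus amygdala), 2 (amygdala minus dorsal hippocampus), 0 (ventral hippocampus minus cortex), 1 (prefrontal cortex minus cortex) and 1 (prefrontal cortex minus ventral hippocampus). Column totals gave 1 for ventral minus dorsal striatum and 1 for prefrontal cortex minus ventral hippocampus, as did leaving out the libraries apart (1 and 1), and leaving out the library with opposing sex genes gave 1 for the latter. The KO difference of Adora1 in ventral striatum was -0.28 in females alone, that of Adk 0.065, and that of Nt5e -0.20, or -0.14 without the libraries apart. In dorsal striatum Adora2a was -0.13 in males alone and Nt5e 0.19 in females alone and 0.016 without the libraries apart. In ventral hippocampus Adora1 was 0.0060 in males alone. The cause was not tested. Leaving out 1 mouse gave 0 to 1 prefrontal KO calls (0 without male KO mouse 1), 1 to 2 calls for ventral minus dorsal striatum, 0 to 2 for ventral hippocampus minus cortex (0 without male WT mouse 3) and 0 to 2 for prefrontal cortex minus ventral hippocampus (0 without male WT mouse 3). It gave KO differences from -0.022 to 0.20 (Adora1) and -0.14 to 0.37 (Nt5e) in ventral striatum, -0.13 to 0.45 (Adora2a) and -0.23 to 0.24 (Nt5e) in dorsal striatum, and -0.072 to 0.085 (Adora1) in ventral hippocampus. With the mouse as a replicate block, 4 of 4 members were called between prefrontal cortex and cortex (3 without it), and no other call of a member changed. Depth limits the shallow set, where 3 counts are worth up to 4.76 CPM.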
